A study of Physcomitrium patens with 3 samples.

Results

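Double-stranded RNA reads from the mitochondrial genome of the moss Physcomitrium patens were examined at the 51 loci that the deposited tables place on the sequence named mitochondrial, out of 39975 loci in all. The members were chosen by that sequence name alone. The libraries came from protonemata, the filamentous juvenile tissue, at 10 days of age, from rdr2, rdr6 and wild-type plants, with 1 library per genotype. All were grown on the same medium with ammonium tartrate and had no treatment. RNA was depleted of ribosomal RNA and digested with a nuclease that cuts single strands before sequencing, so the reads represent stretches that were base-paired. The labels give no allele, number of lines or agent beyond the genotype, and no marker of the genotypes could be checked because the loci carry cluster numbers and no gene names. For the library that the labels call rdr2, the name of the deposited table has a different rdr number; values are given under the label. Since each genotype has only 1 library, differences have no replicate check, and what is called higher or lower holds for these 3 libraries alone. All intervals are exact 95% intervals for counting error. They may be too narrow, because PCR copies of a molecule cannot be told from separate molecules without molecular identifiers.

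Plant mitochondria keep a genome of their own, which codes for subunits of the respiratory chain and ATP synthase, for part of the mitochondrial ribosome, and for ribosomal and transfer RNAs. RDR2 and RDR6 are nuclear-encoded RNA-dependent RNA polymerases, which make a second strand on an RNA template, and are known in plants for the production of small interfering RNAs from nuclear genes and transposons. Double-stranded RNA can also arise without such an enzyme, from transcripts of both strands of a region or from a transcript that folds back on itself, and ribosomal and transfer RNAs hold paired stretches of this kind. The RefSeq gene table of assembly ASM5946719v1 lists 69 mitochondrial genes, of which 42 code for proteins, 3 for ribosomal RNAs and 24 for transfer RNAs. No header or label states the genome build of the loci, so that table was not used to place genes, and it is not stated here which locus lies in a gene, an exon or an intron.

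The 51 loci covered most of the stretch between the first and the last of them. They ran from position 199 to position 100614 and took up 84058 bp, 83.7% of that span. Their median length was 642 bp, against 20 bp over all 39975 loci and 5249 bp over the 17 plastid loci. Of the mitochondrial loci 23 were longer than 1000 bp and 6 were 30 bp or shorter, or 11.8%, against 72.9% of all loci. The longest was Cluster_39930 (7743 to 15394, 7652 bp) and the shortest Cluster_39926 (858 to 872, 15 bp), which had no read in rdr2 or rdr6 and 1 in wild-type. Gaps between neighbouring loci were narrow, with a median of 278 bp and a range of 200 to 1077 bp over the 50 gaps. Over all loci, 28 of 38949 gaps were under 200 bp. A locus is a stretch of reads as the authors delimited it, and need not be a transcript.

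Mitochondrial loci held 45411 reads in rdr2, 107782 in rdr6 and 81545 in wild-type. These were 0.522% (0.517 to 0.527), 1.33% (1.33 to 1.34) and 1.38% (1.37 to 1.39) of the reads in all loci of each library, in the same order. With nuclear loci among the 400 loci with most reads left out of the denominator, the shares were 3.24% in rdr2, 3.68% in rdr6 and 4.32% in wild-type, which lie closer together. A single read was worth 0.103 RPM (reads scaled to the size of the library) in rdr2, 0.107 RPM in rdr6 and 0.143 RPM in wild-type. Of the 51 loci, 37 had at least 20 reads over the 3 libraries and were examined further, which is 72.5%, against 9.41% of all loci. All 17 plastid loci reached this minimum. The 14 other mitochondrial loci had at most 9 reads each and a median length of 35 bp. Together they had 3 reads in rdr2, 16 in rdr6 and 20 in wild-type, and 3 of them had no read in any library.

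Read density was uneven along the mitochondrial sequence, and a pair of neighbouring loci stood above the rest in all 3 libraries. Cluster_39942 (33493 to 37523, 4031 bp) had 532 RPM per kb in rdr2, 1483 in rdr6 and 1291 in wild-type, the highest density in each library. Cluster_39941 (25756 to 33211, 7456 bp), which ends 281 bp before it, had 256, 432 and 465 RPM per kb in rdr2, rdr6 and wild-type. Over the 37 examined loci the median density was 4.56 RPM per kb in rdr2, 19.0 in rdr6 and 23.0 in wild-type, so the densest locus lay 117-fold, 78.2-fold and 56.1-fold above the median locus of its own library.

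A few shorter loci were also dense. Cluster_39965 (87823 to 87896) is only 74 bp long, and had 107 reads in rdr2, 327 in rdr6 and 261 in wild-type. Its 149 RPM per kb in rdr2, 473 in rdr6 and 504.4 in wild-type ranked among the 3 highest densities of each library. Cluster_39936 (21992 to 22376) had 65.6, 255 and 308 RPM per kb in rdr2, rdr6 and wild-type, the fourth highest density in each. Cluster_39937 (22699 to 23340), its neighbour, had 47.7, 111 and 162 RPM per kb, in the same order, the fifth highest in each. Among long loci Cluster_39962 (80461 to 86286) came next, with 21.4 RPM per kb in rdr2, 88.9 in rdr6 and 141 in wild-type. The order of the 6 densest loci was thus nearly shared by the libraries, with only Cluster_39941 and Cluster_39965 changing places. At all 37 examined loci the deposited RPM was lower in rdr2 than in rdr6 and lower than in wild-type. Most of the list went the same way in RPM. Of all 3763 examined loci, rdr2 was below wild-type at 3335 and rdr6 was above rdr2 at 3274, and all 17 plastid loci did both. The mitochondrial count depends on the scaling. With TMM factors rdr2 was below wild-type at 35 loci, and with median-of-ratios size factors at 33. With libraries scaled to the reads outside the 400 loci with most reads, it was below at 31. The rdr6 library was above rdr2 at 35, 34 and 30 loci, in the same order. With these other scalings, directions were not counted over all loci.

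**Figure D1:**
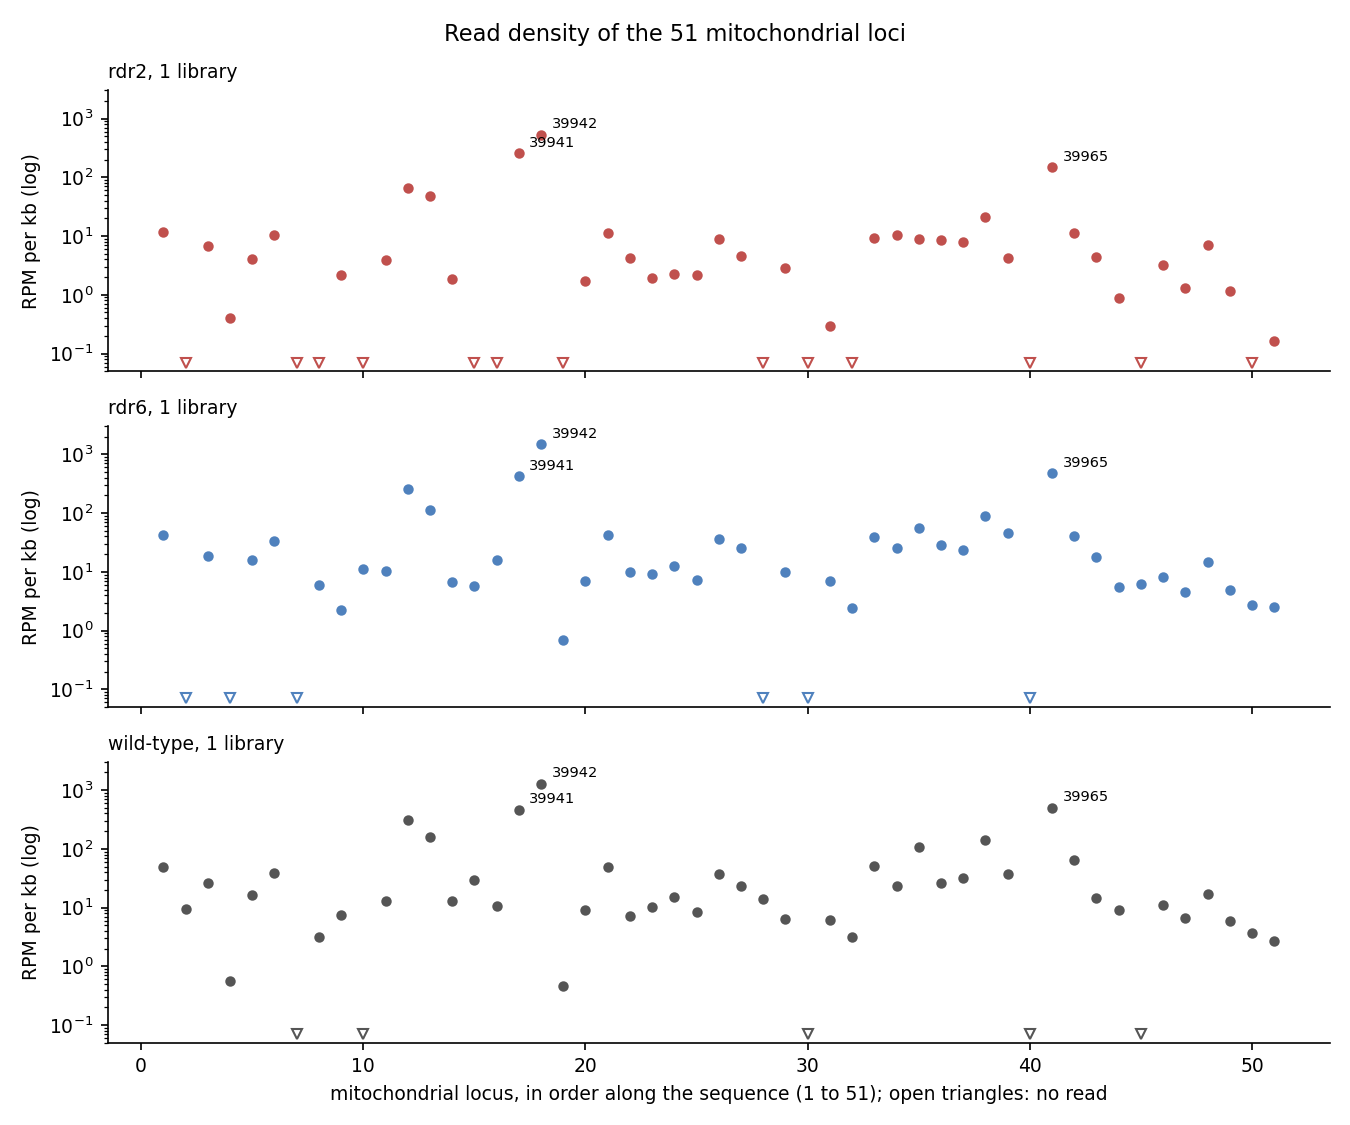
Read density of the 51 mitochondrial loci in order along the sequence, as RPM per kb of locus on a log axis, in the rdr2, rdr6 and wild-type libraries, with open triangles at the foot for loci without a read. The 3 loci with the highest mean density are labelled by cluster number. The rdr2 library, with the fewest mitochondrial reads, has 13 loci without a read, against 6 in rdr6 and 5 in wild-type. Of all 39975 loci, 8636 had reads in rdr2, 13053 in rdr6 and 11570 in wild-type.

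The density profiles of the libraries were alike in shape. Pearson's r of log10 reads per kb was 0.946 between rdr2 and wild-type over the 36 examined loci with reads in both, 0.982 between rdr6 and wild-type over 37, and 0.955 between rdr6 and rdr2 over 36. These are correlations across loci that share a genome and its libraries, and they describe the profiles without a test. Expressed as the part of the mitochondrial reads that would have to lie at other loci for 2 profiles to be equal, rdr2 differed from wild-type by 12.4%, rdr6 from wild-type by 7.496% and rdr6 from rdr2 by 13.0%.

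Shares of the mitochondrial reads, which do not depend on how whole libraries are scaled, showed how far the reads were concentrated. Cluster_39942 took 45.8% of the mitochondrial reads in rdr2 (45.3 to 46.3), 51.9% in rdr6 (51.6 to 52.1) and 44.6% in wild-type (44.3 to 44.96). Cluster_39941 took 40.8% in rdr2 (40.3 to 41.3), 27.9% in rdr6 (27.6 to 28.2) and 29.7% in wild-type (29.4 to 30.04). Together the pair held 86.6% of the mitochondrial reads in rdr2 (86.3 to 86.9), 79.8% in rdr6 (79.5 to 80.0) and 74.3% in wild-type (74.0 to 74.6). The 49 other loci shared 13.4% in rdr2, 20.2% in rdr6 and 25.7% in wild-type. The reads were thus most concentrated in rdr2 and least in wild-type. The inverse Simpson number, the number of equally filled loci that would give the same concentration, was 2.65 in rdr2, 2.85 in rdr6 and 3.39 in wild-type.

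The balance within the pair differed between the libraries. For each read at Cluster_39942 there were 0.891 reads at Cluster_39941 in rdr2 (0.873 to 0.909), 0.538 in rdr6 (0.531 to 0.546) and 0.666 in wild-type (0.655 to 0.677). Per kb, Cluster_39942 was 2.08-fold denser than its neighbour in rdr2, 3.44-fold in rdr6 and 2.78-fold in wild-type. The mutants therefore lay on opposite sides of wild-type in this ratio, which needs no library scaling. Whether libraries of a single genotype vary by this much was not tested.

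Below the pair, Cluster_39962 had the third largest share in each library, with 2.66% in rdr2, 4.49% in rdr6 and 7.04% in wild-type. Cluster_39930 took 1.70%, 2.26% and 2.55% in rdr2, rdr6 and wild-type. Cluster_39957 (63822 to 69747) took 1.19%, 2.04% and 2.60%, in the same order. Each of these long loci had its smallest share in rdr2 and its largest in wild-type. Cluster_39950 (52274 to 59094) took 1.31% in rdr2, 2.15% in rdr6 and 2.18% in wild-type, and Cluster_39945 (40167 to 43348) took 0.769%, 1.19% and 1.36%. Cluster_39958 (69963 to 73662) went against this order, with 0.819% in rdr2, 0.812% in rdr6 and 0.749% in wild-type.

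**Figure D2:**
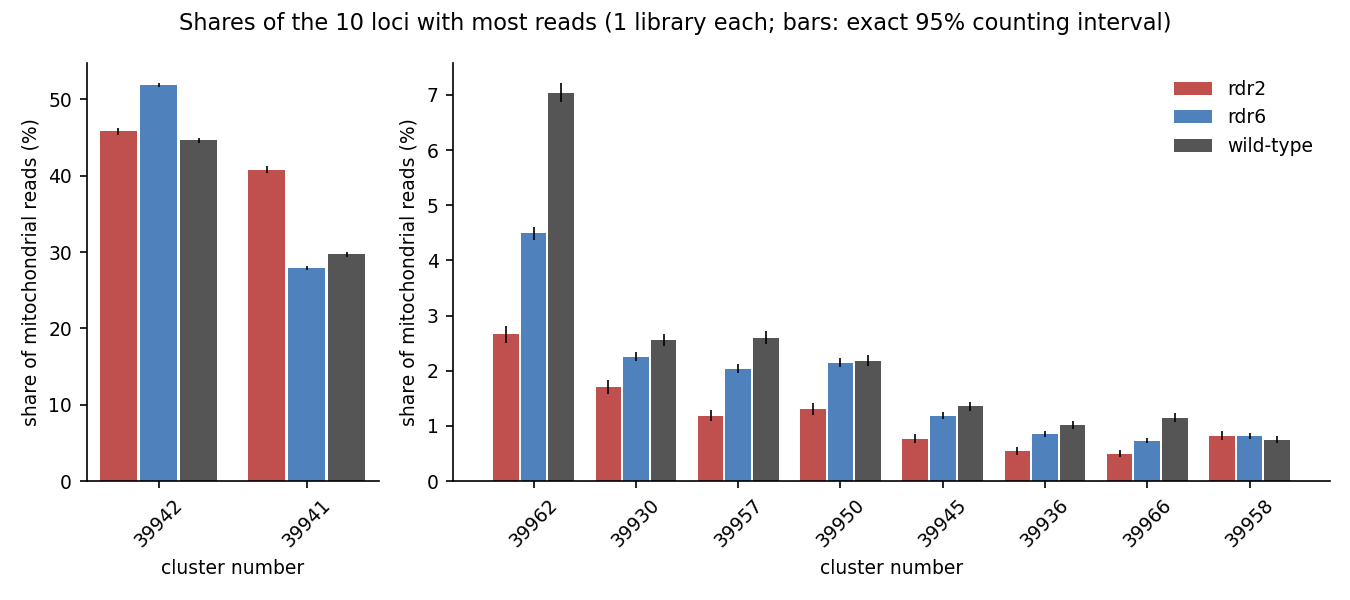
Share of all mitochondrial reads, in percent, at the 10 mitochondrial loci with the highest mean share, for rdr2, rdr6 and wild-type from left to right, with exact 95% counting intervals as error bars. The left panel holds the pair Cluster_39942 and Cluster_39941 and the right panel the next 8 loci on a finer axis, where the rdr2 share is the lowest at all except Cluster_39958.

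The comparison of rdr2 with wild-type asked which mitochondrial loci gave a smaller or larger part of the mitochondrial double-stranded RNA in plants labelled rdr2. Most loci outside the main pair had a smaller share in rdr2. Of the 37 examined loci, 31 lay below their wild-type share and 6 above it, and the median ratio of shares was 0.582. A locus was called when the ratio was at least 2-fold in either direction and its interval lay wholly on one side of 1. By this rule 13 mitochondrial loci were lower in rdr2 and none was higher. Over all 3763 examined loci, each as a share of its own nuclear, plastid or mitochondrial genome, 65.1% were lower in rdr2 and 1.41% higher, with a median ratio of 0.284. By share of own genome, the part of the mitochondrial loci called lower, 35.1%, was thus under that of the list as a whole. For levels the order was the opposite. In RPM 91.9% of the mitochondrial and 55.5% of all examined loci were called lower in rdr2, and the other scalings given below kept this order.

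Cluster_39959 (73915 to 75322, 1408 bp) had the lowest upper bound of the ratio among the 13. It had 121 reads in rdr2, 742 in rdr6 and 1051 in wild-type, or 0.266%, 0.688% and 1.29% of the mitochondrial reads, which put rdr2 at 0.207 times the wild-type share (0.170 to 0.2497). By reads it was the sixteenth locus in rdr2 and the eighth in wild-type. Cluster_39962 lay at 0.378 times its wild-type share in rdr2 (0.355 to 0.402), and Cluster_39966 (88225 to 90306) at 0.432 times (0.372 to 0.5003). Cluster_39948 (46765 to 49948) had 71 reads in rdr2 and 337 in wild-type, 0.378 times the wild-type share (0.289 to 0.490). Cluster_39957 lay at 0.456 times (0.414 to 0.502). Of these 5 loci, Cluster_39957, Cluster_39959, Cluster_39962 and Cluster_39966 lie between 63822 and 90306, and Cluster_39948 lies before them. None is next to another of the 5, and Cluster_39962 and Cluster_39966 are parted by 3 shorter loci.

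The loci not called lower included the largest. The share of Cluster_39941 in rdr2 was 1.37 times that in wild-type (1.35 to 1.40), and that of Cluster_39942 was 1.03 times (1.01 to 1.04). Cluster_39958 was at 1.09 times its wild-type share, with an interval from 0.958 to 1.25. The dense loci Cluster_39936 and Cluster_39937 were at 0.530 times (0.458 to 0.612) and 0.734 times (0.639 to 0.841), short of the 2-fold limit. No rdr2 read was found at Cluster_39940 (25378 to 25483), which lies just before Cluster_39941 and had 16 reads in rdr6 and 8 in wild-type. The exact interval for its 0 of 45411 mitochondrial reads in rdr2 reached a share of 0.00812%, and the interval of the ratio reached 1.05, so it was not called.

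**Figure D3:**
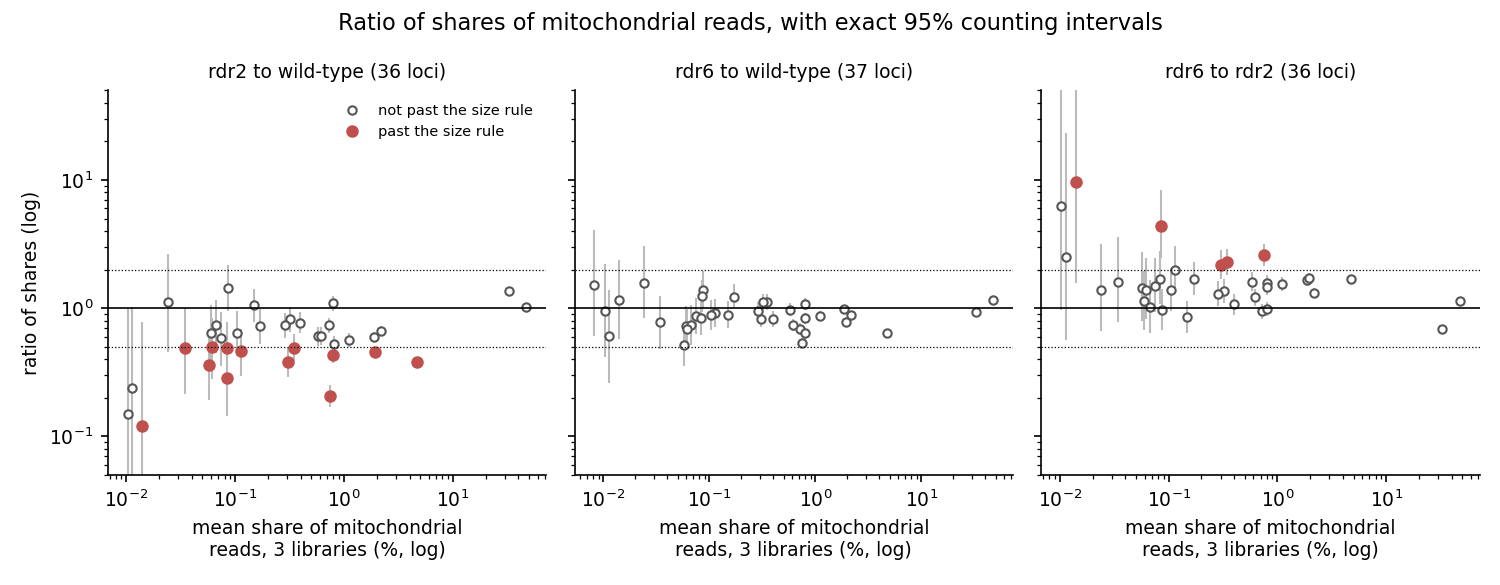
Ratio of shares of mitochondrial reads at the examined loci for rdr2 to wild-type, rdr6 to wild-type and rdr6 to rdr2, against the mean share over the 3 libraries, both on log axes, with exact 95% counting intervals as grey lines cut at the frame. Filled points passed the size rule, dotted lines mark 2-fold, and Cluster_39940, without a read in rdr2, is left out of the panels with rdr2.

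Shares add up to 100%, so a larger share at the pair and smaller shares at the other loci go together, and shares cannot tell a rise at the one from a fall at the other. Among the 49 other loci alone, the ratios of rdr2 to wild-type centred near 1, with a median of 1.08 over 35 examined loci, 16 below 1 and 19 above. A centre near 1 follows in part from this denominator, because these shares also add up to 100% in each library. In RPM the 49 loci together were at 0.210 times wild-type in rdr2. Of the 13 loci called lower, 1 was still called, Cluster_39959, with 1.99% of the reads of the 49 loci in rdr2 and 5.02% in wild-type, a ratio of 0.396 (0.325 to 0.478). Cluster_39962, which held 19.8% of the reads of the 49 loci in rdr2 and 27.4% in wild-type, had a ratio of 0.723 and was not called. On the same scale 3 loci were higher in rdr2, that is, relative to the 49 loci together. Cluster_39958 took 6.11% of the reads of the 49 loci in rdr2 and 2.92% in wild-type, 2.09-fold (1.84 to 2.38). Cluster_39946 (43608 to 44680) was 2.75-fold higher (1.81 to 4.16), with 44 reads in rdr2 and 55 in wild-type. Cluster_39972 (95734 to 96780) was 2.01-fold higher (1.48 to 2.71), with 72 reads in rdr2 and 123 in wild-type. In RPM all 3 were below wild-type in rdr2. Cluster_39958 was at 0.439 times, Cluster_39946 at 0.576 times and Cluster_39972 at 0.422 times. As shares of all mitochondrial reads their ratios were 1.09, 1.44 and 1.05, in the same order, and none was called. Cluster_39958 and Cluster_39959 are neighbours 252 bp apart, and their ratios of shares among the 49 loci lay on opposite sides of 1. For rdr6, the ratios to the same wild-type library among the 49 loci were 1.37 at Cluster_39958, 1.76 at Cluster_39946 and 1.13 at Cluster_39972. No count over all examined loci was made on a like scale. This denominator was chosen after the data were seen.

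**Figure D4:**
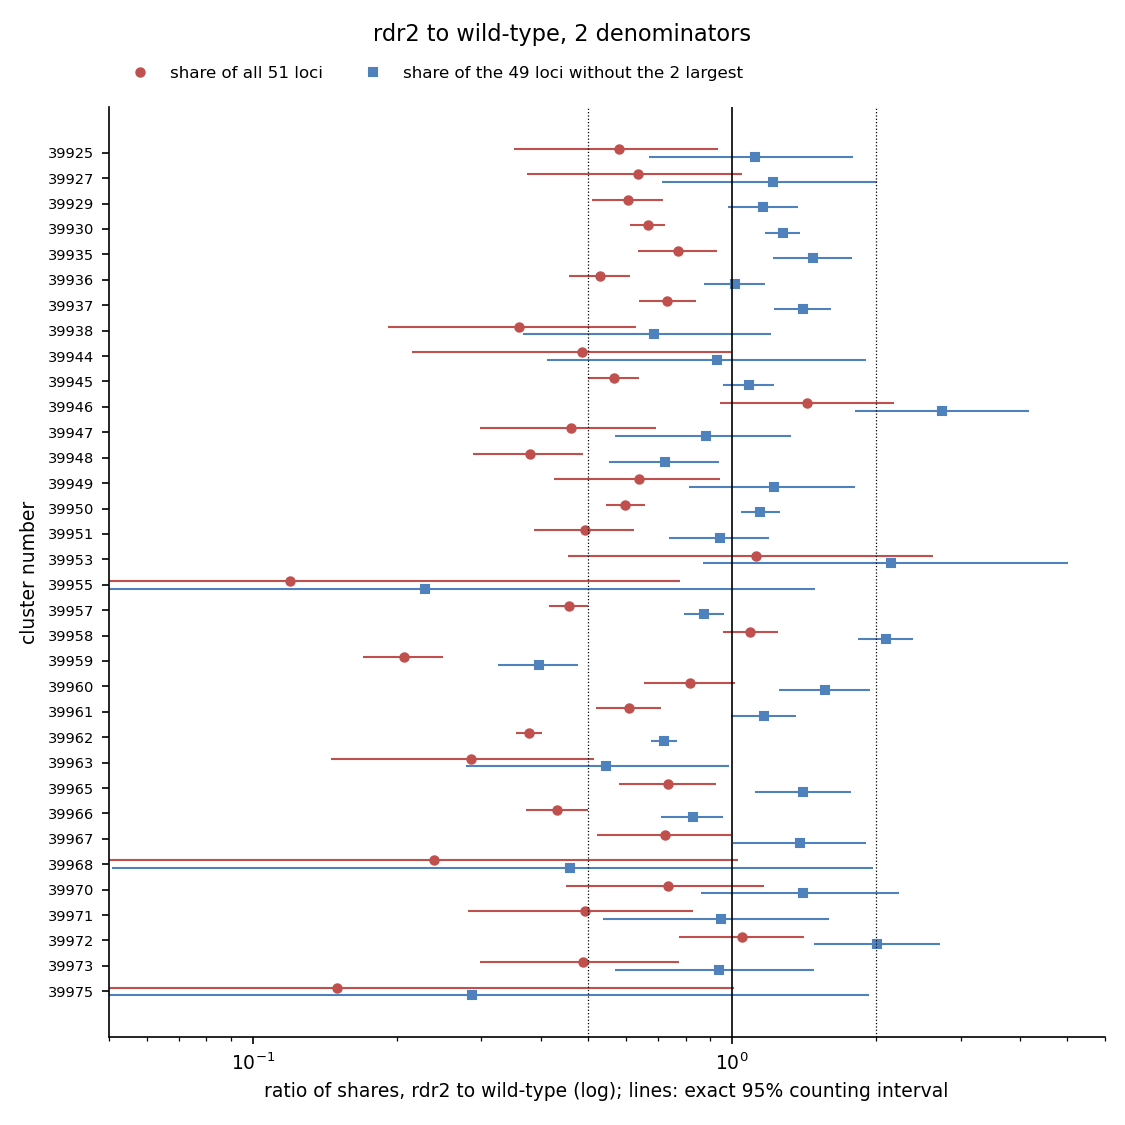
Ratio of shares in rdr2 to wild-type, on a log axis, with exact 95% counting intervals, for the examined mitochondrial loci other than Cluster_39941, Cluster_39942 and Cluster_39940, in order along the sequence. Circles are shares of the reads of all 51 loci, squares are shares of the reads of the 49 loci without the pair, where the median ratio over 35 examined loci, Cluster_39940 included, is 1.08, with Cluster_39959 the 1 locus still called lower and Cluster_39946, Cluster_39958 and Cluster_39972 above 2.

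The comparison of rdr6 with wild-type showed differences in the mitochondrial profile that stayed within 2-fold. None of the 37 examined loci was called in either direction, against 6.88% of all examined loci lower and 9.41% higher by the same rule on shares of their own genome. The median ratio was 0.884, with 27 loci below 1 and 10 above, and the ratios ran from 0.514 to 1.56. That direction depends on the main pair, Cluster_39941 and Cluster_39942. With the pair left out of the denominator, the median over 35 examined loci was 1.11, with 12 below 1 and 23 above. No locus was called on that scale either. The share of Cluster_39942 was 1.16 times that in wild-type (1.15 to 1.18) and that of Cluster_39941 was 0.939 times (0.923 to 0.955). The lowest ratio, 0.514 (0.353 to 0.744), was at Cluster_39938 (23797 to 24614), with 51 reads in rdr6 and 75 in wild-type. Among loci with over 1000 reads in wild-type, Cluster_39959 lay furthest below, at 0.534 times its wild-type share in rdr6 (0.486 to 0.587). Cluster_39962 came next, at 0.638 times (0.614 to 0.663). Cluster_39966, with 939 reads in wild-type, was at 0.636 times its share in wild-type (0.578 to 0.700). The intervals of these ratios lie wholly under 1, short of the 2-fold limit. For the same 3 loci the ratios of rdr2 to wild-type were 0.207, 0.378 and 0.432, and both sets of ratios rest on the same wild-type library. Without the pair, the ratios of rdr6 to wild-type at Cluster_39959, Cluster_39962 and Cluster_39966 were 0.677, 0.808 and 0.806. Their intervals still lay wholly under 1.

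The comparison of rdr6 with rdr2 leaves the wild-type library out. By share, 6 mitochondrial loci were higher in rdr6 and none was lower, or 16.2%, against 68.6% of all examined loci higher and 2.34% lower. Cluster_39963 (86682 to 87000, 319 bp) had 134 reads in rdr6 and 13 in rdr2, a share 4.34-fold higher in rdr6 (2.46 to 8.37). Cluster_39959 was 2.58-fold higher (2.13 to 3.16), Cluster_39951 (59387 to 61399) 2.28-fold higher (1.82 to 2.89) and Cluster_39948 2.18-fold higher (1.69 to 2.85). Cluster_39940 had 16 reads in rdr6 and none in rdr2, and the exact interval of its ratio began at 1.62. With 3 reads, the floor for a library, in place of 0, the ratio was 2.25. The sixth, Cluster_39955 (62899 to 63244), had 23 reads in rdr6 and 1 in rdr2, a ratio of 9.69 with an interval from 1.57 to 399. Of the largest loci, Cluster_39941 had 0.684 times its rdr2 share in rdr6 (0.672 to 0.697), and Cluster_39942 1.13 times (1.11 to 1.15). Among the 49 loci without the pair, 3 of the 6 were still called, Cluster_39940, Cluster_39955 and Cluster_39963. The intervals of Cluster_39940 and Cluster_39955, with 0 and 1 read in rdr2, then began close to 1, at 1.08 and 1.04. The floor of 3 reads was not applied on this scale. Cluster_39963 was 2.88-fold higher (1.63 to 5.54). No count over all examined loci was made on a like scale.

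Summed over windows of 10 kb, the window from 20001 to 30000 had a larger share in rdr2 than in the other libraries. This window, to which Cluster_39936, Cluster_39937 and Cluster_39941 belong by their midpoints, held 42.0% of the mitochondrial reads in rdr2, 29.4% in rdr6 and 31.7% in wild-type. The window from 30001 to 40000 held 45.8%, 51.9% and 44.7% in rdr2, rdr6 and wild-type. Outside these, the window from 80001 to 90000 held most, with 3.42% in rdr2, 5.65% in rdr6 and 8.61% in wild-type. It was also the window with the lowest ratio of shares among those with more than 1 locus, at 0.397 for rdr2 to wild-type (0.376 to 0.420) and 0.656 for rdr6 to wild-type (0.634 to 0.679). In each of the windows before 20001 and after 40000, the share was lower in rdr2 than in wild-type, with ratios from 0.397 to 0.718 where a window held more than 1 locus. The last window, which holds Cluster_39975 alone, had 1 read in rdr2, 15 in rdr6 and 12 in wild-type.

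Most reads lay in the long loci. The 23 loci over 1000 bp held 98.3% of the mitochondrial reads in rdr2, 97.7% in rdr6 and 97.2% in wild-type. The 14 loci longer than 200 and up to 1000 bp held 1.47%, 1.95% and 2.47%, and the 8 loci of 31 to 200 bp 0.240%, 0.328% and 0.346%, in the same order. In this shorter class, which spans 631 bp in all, Cluster_39965 supplied 107 of its 109 reads in rdr2, 327 of 353 in rdr6 and 261 of 282 in wild-type. The 6 loci of 30 bp or less had no read in rdr2, 4 in rdr6 and 5 in wild-type.

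The total of mitochondrial reads depends on how the libraries are scaled. On the deposited RPM scale the 51 loci summed to 4680 RPM in rdr2, 11532 in rdr6 and 11662 in wild-type, which was 0.401 times wild-type in rdr2 (0.397 to 0.406) and 0.989 times in rdr6 (0.980 to 0.998). The rdr6 library had 2.46 times the RPM of rdr2 (2.44 to 2.49). The difference of rdr2 was smaller at the pair, at 0.467 times wild-type (0.462 to 0.473), than at the 49 other loci together, at 0.210 times (0.204 to 0.216). On this scale 34 of the 37 loci, or 91.9%, were called lower in rdr2 than in wild-type and none higher, against 55.5% and 2.1% of all examined loci. None was called lower or higher in rdr6 than in wild-type, against 7.57% and 8.03%. In rdr6 against rdr2, 36 of the 37, or 97.3%, were called higher and none lower, against 57.9% and 3.72%. The ratio of rdr2 to wild-type was 0.796 with TMM factors and 0.935 with median-of-ratios size factors, and it passed to the other side of 1, at 1.04, when libraries were scaled to the reads outside the 400 loci with most reads. The ratio of rdr6 to rdr2 likewise was 0.896 on that last scale. The calls moved too. In rdr2 against wild-type, 22 of the 37 loci were called lower with TMM factors and 17 with size factors. With the reads outside the 400 loci 9 were called lower. Of all 3763 examined loci, 997, 801 and 693 were called lower, in the same order (26.5%, 21.3% and 18.4%), a smaller part each time. In rdr6 against wild-type 2, 1 and 2 of the 37 loci were called lower, in the same order. Of all 3763 examined loci 341, 299 and 340 were called lower (9.06%, 7.95% and 9.04%), a larger part each time. The mitochondrial ones were Cluster_39938 under each of the 3 scalings and Cluster_39959 with TMM factors and with the reads outside the 400 loci. In rdr6 against rdr2, 8, 8 and 5 of the 37 loci were called higher. Of all 3763 examined loci 1112, 994 and 839 were called higher (29.6%, 26.4% and 22.3%), a larger part each time. In these whole-tissue libraries, fewer mitochondria or less RNA per mitochondrion cannot be told apart from less double-stranded RNA.

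Set against the plastid, the other organelle genome, the mitochondrial part over all loci was smallest in rdr2. Mitochondrial reads made up 3.43% of the reads of both organelles in rdr2 (3.40 to 3.46), 3.97% in rdr6 (3.95 to 3.99) and 4.69% in wild-type (4.66 to 4.72). This share was 0.732 times wild-type in rdr2 (0.723 to 0.740) and 0.846 times in rdr6 (0.838 to 0.854). For rdr2 the direction depends on the 2 loci with most reads in each genome. Without them, rdr2 had 0.210 times the wild-type RPM at mitochondrial loci and 0.194 times at plastid loci. The mitochondrial part was then not smaller in rdr2 than in wild-type. For rdr6 these ratios were 0.780 and 0.946, the same direction as over all loci. The 17 plastid loci were concentrated in a like way. The 2 plastid loci with most reads held 89.5% of the plastid reads in rdr2, 75.9% in rdr6 and 70.0% in wild-type. Outside the leading pair of each genome, the pooled share in rdr2 was 0.522 times wild-type for the mitochondrion (0.508 to 0.537) and 0.350 times for the plastid (0.348 to 0.352). In rdr6 these ratios were 0.789 (0.774 to 0.804) and 0.803 (0.8004 to 0.806). By locus, the median ratio of rdr2 to wild-type was 0.582 over 37 mitochondrial and 0.103 over 17 plastid loci, with 13 and 14 loci called lower. The difference between the organelles has no replicate check and was not tested.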

How the data were processed

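Each deposited table lists each locus with a count and an RPM value, per the file headers, and the authors' counts were used as deposited. RPM is the count scaled to a library total, which the ratio of both columns gave as 9703597 for rdr2, 9346061 for rdr6 and 6992269 for wild-type; 89.6%, 86.4% and 84.8% of these reads lay in loci. Bowtie 0.12.9 and SAMtools were used, per the submitters' processing notes. Not given in the sources used here are the calling of loci, the placing of reads with several matches and the rounds of ribosomal RNA depletion per library. Reads of repeated sequence may be shared or misplaced between loci and between organelle and nuclear copies. The tables give no strand.

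Shares are reads of a locus over reads of its genome in the same library, with Clopper-Pearson intervals. Ratios have exact intervals from a binomial split of the reads at a locus between a pair of libraries. A locus was examined where its reads summed to 20 or more, and calls needed a ratio of 2 with an interval beyond 1. No p-value was computed. Code was tested on simulated data. TMM factors came from edgeR 4.0.16 in R 4.3.3; the rest used Python 3.11.15 with scipy 1.17.1, numpy 2.4.6, matplotlib 3.10.9 and pandas 2.3.3.

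Named loci are the 10 with the highest mean share, the 5 of 100 bp or more with the highest mean density, up to 5 called in each direction by the interval bound nearest 1, and the longest and shortest. Cluster_39938, Cluster_39946, Cluster_39955, Cluster_39965, Cluster_39972 and Cluster_39975 were named after their values were seen. The members, rules and lists were chosen with earlier results of these data known.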

Additional observations from a re-analysis of the deposited data

How the results depend on the processing

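Alternatives to the shares and scalings were a read minimum of 10, 50 or none, a stricter rule of 4-fold with an interval beyond 2, other denominators and other library totals. Loci lower in rdr2 than in wild-type by share numbered 13, but 1 by the stricter rule, 6 by shares of reads per kb, 34 in RPM and 1 without the 2 largest loci, where 3 were higher in place of 0. Loci higher in rdr6 than in rdr2 numbered 6, but 1 by the stricter rule, 36 in RPM and 3 without the 2 largest. The other counts by share stayed within 1.5 times, and no alternative share, nor the deposited RPM, gave a call in rdr6 against wild-type. Counts by level were 34 lower in rdr2 than in wild-type, 0 lower in rdr6 than in wild-type and 36 higher in rdr6 than in rdr2 in RPM, against 22, 2 and 8 with TMM factors, 17, 1 and 8 with size factors and 9, 2 and 5 with the reads outside the 400 loci with most reads, scalings of calls that were added after the data were seen. The cause of these shifts was not tested.

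The pooled ratio of rdr2 to wild-type was 0.401 in RPM, 0.796 with TMM factors, 0.935 with size factors, 1.04 (reversed in direction) with the reads outside the 400 loci with most reads, 0.393 without the largest locus and 0.210 without the 2 largest. That of rdr6 to wild-type was 0.989 and then 0.924, 0.971, 0.929, 0.860 and 0.780 in the same order, and that of rdr6 to rdr2 was 2.46 and then 1.16, 1.04, 0.896 (reversed), 2.19 and 3.72. The mitochondrial share was 0.468% in rdr2, 1.15% in rdr6 and 1.17% in wild-type of library totals, and 3.24%, 3.68% and 4.32% of the reads of organelle loci and of loci outside those 400. With 1 library per genotype, no replicate could be left out, and depth limits the smallest loci: the exact interval for a count of 0 reaches a share of 0.00812% in rdr2, 0.00342% in rdr6 and 0.00452% in wild-type.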
